A study of Mus musculus with 13 samples.

Results

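The H3K27me3 peaks of 3 mouse pre-T leukaemia lines were compared: 748T and 106A, which carry the NUP98-PHF23 fusion (NP23), and an SCL-LMO1 control line, which does not. The members are all peaks on the 19 autosomes in the 3 deposited lists, 18654 regions of 109165 in the 9 lists of the series. Line 748T gave 8362 of them, 106A gave 5424 and the SCL-LMO1 line 4868. Lines 748T and 106A were derived from NUP98-PHF23 pre-T LBL of different C57BL/6 mice and form the NP23 pre-T group. The control was grown out of an SCL-LMO1 pre-T LBL, and its strain is C57BL/6+C3H hybrid, so oncogene and strain change together in it and cannot be told apart. All 3 lines are lymphoblasts that grew without added cytokine, and no treatment distinguishes them. Each line is 1 culture with 1 H3K27me3 library, so no difference between the groups was tested, and the difference between 748T and 106A is the only measure of spread between lines of a group. The labels do not say whether a line is a single clone.

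H3K27me3 is trimethylation of lysine 27 on histone H3. It is deposited by Polycomb repressive complex 2 through its EZH2 or EZH1 subunit, and it marks silent chromatin, often as broad domains over developmental regulators. In T cell leukaemia the balance between this mark and activating marks such as H3K4me3, found at active promoters, is often disturbed. The series set out to relate both marks to chromatin binding of NP23, a fusion of a nuclear pore protein with the PHD finger of PHF23, a fold that can bind H3K4me3. SCL is a transcription factor and LMO1 an adaptor that joins it, and both are oncogenes of T cell leukaemia. Coordinates are mm9, and genes at these positions were not analysed here, so the labelled cell type could not be checked against marker genes.

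The lists consisted of short, low peaks that tended to lie in groups. The median width was 204 bp for 748T, 219 bp for 106A and 214 bp for the control, and the widest peaks were 2683, 5628 and 2458 bp. The peaks covered 2.23, 1.51 and 1.20 Mb in the same order. Median heights were 12, 10 and 12 reads, so many peaks rest on few reads, and no read totals came with the lists. Grouping was closest in 748T, the longest list, where 64.4% of peaks had another peak of the same list within 10 kb. The share was 56.2% for 106A and 41.0% for the SCL-LMO1 line.

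A second track printed beside each peak, whose meaning the files do not state, differed between the lines. It was 0 over 77.3% of the 748T peaks, 16.4% of the 106A peaks and 20.4% of the control peaks. Its mean passed 1 read at 45 peaks of 748T (0.538%), 896 of 106A (16.5%) and 486 of the control (9.98%). Its part in the results was not tested, and leaving these peaks out moved none of the recomputed overlaps, distances, counts and density ratios by over 1.5 times. It did move some past their intervals. The overlap of 106A peaks with 748T went from 8.44% to 6.91%, and that of control peaks with 106A from 5.42% to 4.34%. Median distances went from 37.5 to 42.7 kb (106A to 748T) and from 43.3 to 55.2 kb (control to 106A). From 106A to H3K4me3 shared by the 3 lines the median went from 80.4 to 83.1 kb.

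Few peaks of any list met a peak of another list, and the 2 fusion lines met each other most. Of 106A peaks, 458 of 5424 overlapped a 748T peak by at least 1 bp (8.44%, exact Clopper-Pearson 95% interval 7.72 to 9.22) and 255 overlapped a control peak (4.70%, 4.15 to 5.30). Of 748T peaks, 470 of 8362 overlapped 106A (5.62%, 5.14 to 6.14) and 151 overlapped the control (1.81%, 1.53 to 2.11). From the control, 264 of 4868 peaks overlapped 106A (5.42%, 4.80 to 6.10) and 147 overlapped 748T (3.02%, 2.56 to 3.54). The control thus met 106A more often than 748T although the 748T list is longer. A longer list also offers more peaks to meet, and 748T has the longest. With each list reduced to its 4868 tallest peaks, 6.92% of 106A peaks met 748T. Of control peaks 5.22% then met 106A and 2.03% met 748T. The share of 106A peaks meeting the control was not recomputed that way. The intervals cover counting error only, and peaks of a group share their domain.

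By bases shared, the order of the 3 combinations was the same. The list of 748T shared 110.6 kb with 106A, a base-pair Jaccard index (shared bases over all bases in either list) of 3.04%. Between 106A and the control 53.0 kb were shared (1.99%), and between 748T and the control 26.5 kb (0.780%). Of the bases in 106A peaks, 7.31% were also in 748T peaks and 3.50% in control peaks.

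Overlap was more common among wide peaks. Of 106A peaks under 150 bp, 3.58% (2.84 to 4.46) met 748T, and of those of 1200 bp or more 23 of 70 did (32.9%, 22.1 to 45.1). Against the control the same classes gave 2.51% (1.89 to 3.27) and 22 of 70 (31.4%, 20.9 to 43.6). In the widest 106A peaks, only 70 in number, the shares for 748T and the control were thus close. From 150 to under 300 bp they were 7.94% (6.70 to 9.32) against 3.15% (2.38 to 4.09). From 300 to under 600 bp they were 12.6% against 7.11%, and from 600 to under 1200 bp 22.1% against 12.5%. Both shares come from the same 106A peaks, and the intervals do not test their difference. The 74 widest peaks of 748T met 106A in 12 cases (16.2%, 8.67 to 26.6) and the control in 6 (8.11%, 3.03 to 16.8).

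**Figure D1:**
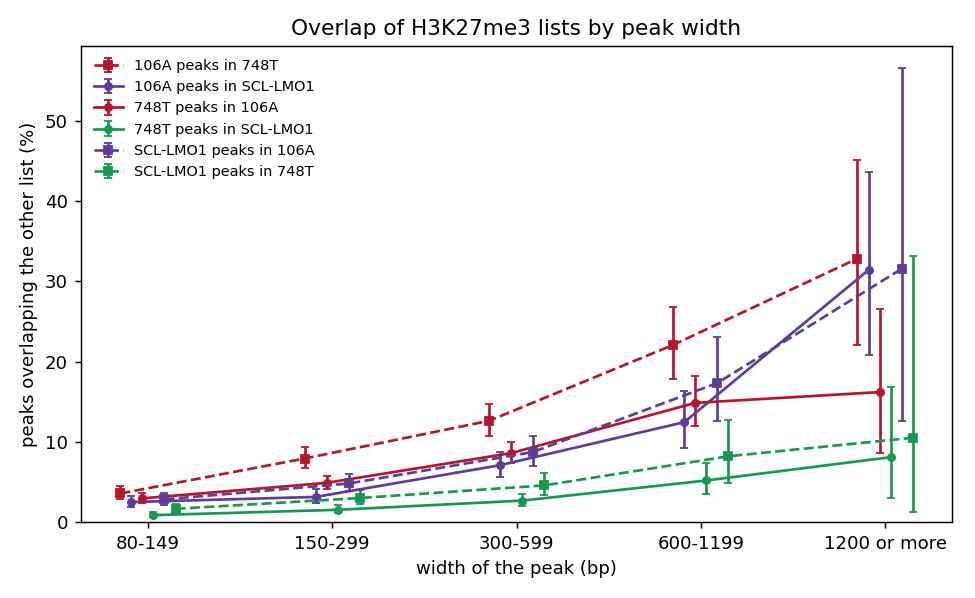
Share of H3K27me3 peaks (%) that overlap another list by at least 1 bp, by width of the peak in bp, for each ordered combination of lines. Points are shares and bars exact 95% binomial intervals. Every curve is higher at 1200 bp or more than under 150 bp, and 106A peaks in 748T reach 32.9% and 106A peaks in the control 31.4%.

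Peaks of 106A that met 748T passed a second-track mean of 1 read more often than the rest, in 31.7% of cases against 15.1%. For the 106A peaks that met the control the values were 16.5% and 16.5%. Control peaks that met 106A gave 14.02% against 9.75%, and those that met 748T gave 8.16% against 10.04%. The median second track was higher in the overlapping peaks of both 106A and the control. From 106A it was 0.763 against 0.486 reads (with 748T) and 0.591 against 0.498 (with the control). From the control it was 0.516 against 0.398 (with 106A) and 0.492 against 0.403 (with 748T). Without peaks above 1 read in any list, 6.91% of 106A peaks met 748T, which remained the highest of the shares computed that way, with 4.34% of control peaks meeting 106A and 3.08% meeting 748T.

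Merging overlapping peaks over the 3 lists gave 17778 regions, of which most were found in 1 line. The counts were 7778 in 748T alone, 4755 in 106A alone and 4492 in the control alone. In both fusion lines and not the control there were 395 regions (2.22%), against 205 in 106A and the control (1.15%) and 110 in 748T and the control (0.619%). All 3 lines shared 43 regions (0.242%). Counting against a single fusion line instead of both changed the number manyfold: 5169 regions of 106A and 8211 of 748T, each formed without the other fusion line, lay outside the control. Shared regions had a median width of 498 bp for the fusion lines together and 1089 bp for all 3, against 196 bp for 748T alone. A shared region is the union of the peaks that overlap, so merging itself widens it. Taken singly, 748T peaks that met 106A had a median of 308.5 bp, against 197 bp for the rest. For 106A peaks that met 748T the values were 324.5 and 207.5 bp.

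The widest of the 395 regions lay on chromosome 15 from 102574159 to 102577332 (3174 bp), with 4 peaks in 748T covering 56.0% of it and 2 peaks in 106A covering 82.7%. The next was on chromosome 3 from 94716641 to 94719070 (2430 bp), where 748T had 4 peaks covering 71.9% and 106A 1 peak covering 90.1%. On chromosome 4 from 106153536 to 106155830 (2295 bp) each fusion line had 2 peaks. None of the 10 widest such regions touched an H3K4me3 peak in any of the 3 lines. Over all 395 regions the shares were also low, at 3.29% for H3K4me3 of 748T, 1.27% for 106A and 1.52% for the control. The 10 widest are therefore not set apart by it. In 5 of the 10 a control H3K27me3 peak lay within 50 kb, a share that was not computed for all 395. In those 5 the control was marked nearby and not in the region itself.

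The widest of the 43 regions of all 3 lines was on chromosome 11 from 98180511 to 98183747 (3237 bp). A single 106A peak covered 99.2% of it, and peaks of 748T and the control covered 8.28% and 9.27%. On chromosome 15 from 102802395 to 102805118 (2724 bp) each line had 2 peaks, covering 72.0% in 748T, 88.4% in 106A and 46.0% in the control. On chromosome 4 from 107663585 to 107665191 (1607 bp) the cover was 82.7%, 70.6% and 48.7%. None of the 10 widest regions of this kind held an H3K4me3 peak in any of the 3 lines. Of all 43, 1 touched H3K4me3 of 748T (2.33%) and 0 that of 106A or the control, so the widest are not set apart.

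Among the 10 widest peaks of each list, those of 748T were the least often met by a peak of another list. None of the 10 in 748T (1960 to 2683 bp) met a 106A peak and 1 met a control peak, on chromosome 7 from 52438506 to 52440883. Of the 10 widest in 106A (2462 to 5628 bp), 4 met 748T and 6 met the control. The peak on chromosome 1 from 135119728 to 135124744 (5017 bp), for example, had no 748T peak and 1 control peak over 12.4% of its length. Of the 10 widest in the control (1507 to 2458 bp), 1 met 748T and 3 met 106A. The control's 10 lay on 3 chromosomes, against 7 for 748T and 6 for 106A. Of all 748T peaks of 1200 bp or more, 16.2% met 106A and 8.11% met the control. For 106A the shares were 32.9% with 748T and 31.4% with the control. For the control they were 10.5% with 748T and 31.6% with 106A. With 10 peaks per list, of unlike widths, the counts are not read as a trait of a line.

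Distances to the nearest peak showed that the lists lay nearer to each other than their overlap shows. The median distance from a 106A peak was 37.5 kb to 748T and 34.1 kb to the control, and from a control peak 65.9 kb to 748T and 43.3 kb to 106A. From a 748T peak it was 77.5 kb to 106A and 94.6 kb to the control. Thus 106A peaks were as near to the control as to the other fusion line at the median, though more of them overlapped the latter. Within 10 kb lay 32.2% of 106A peaks for 748T and 32.3% for the control, and within 1 kb 14.4% and 12.0%.

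How near a list can lie depends on its length and on how its peaks are grouped. With each list reduced to its 4868 tallest peaks, the median from 106A to 748T was 95.7 kb and from the control to 748T 161.5 kb, while from the control to 106A it was 49.8 kb. With lists of equal length, the distance from the control to 106A was thus the shortest of these 3, and both distances to 748T lengthened by over 1.5 times. The 3 do not share a starting list, the 748T list lost the most peaks and the control list none. Distances from 106A to the control and from 748T were not recomputed that way. Of the 5424 peaks of 106A, 304 had no control peak within 1 Mb and 142 no 748T peak.

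**Figure D2:**
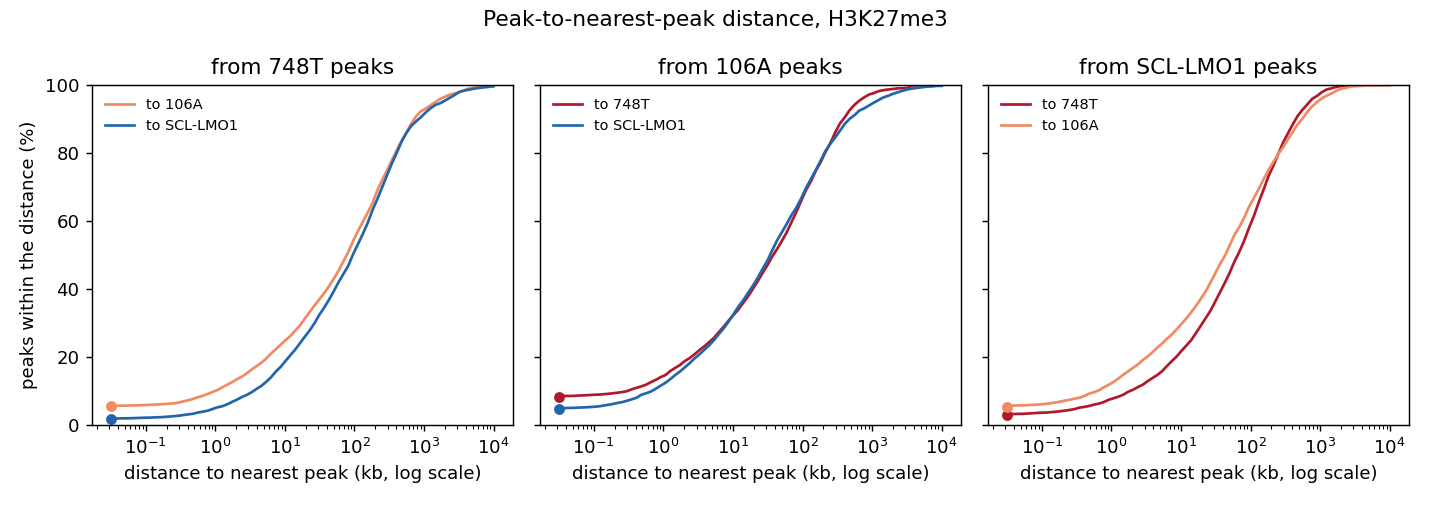
Cumulative share of peaks (%) against the distance to the nearest peak of another list (kb, log scale), one panel per starting line. Dots at the left give overlapping peaks (distance 0). From 106A the curves to 748T and to the control meet near 10 kb, with 32.2% and 32.3% within it. Further out they cross, with 51.7% to 748T and 54.2% to the control at 42945 bp. At 903018 bp the values are 97.2% and 94.0%.

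Counted in bins of 100 kb, the H3K27me3 counts of 106A followed the control more closely than 748T. Over 24707 autosomal bins, Pearson's r between peak counts was 0.411 for 106A with the control, 0.318 for 106A with 748T and 0.241 for 748T with the control. Spearman's rho gave the same order, with 0.379, 0.306 and 0.263. The excess of 106A with the control over 106A with 748T, 0.0928, kept its sign and was 0.0206 with the taller 50% of each list and 0.0409 in 50 kb bins. These values describe bins that share sequence composition, gene density and neighbours, and they carry no test. The order of the 2 highest differed from that by overlap, where 106A and 748T came out on top.

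A peak fell in 3258 bins of 748T, 2545 of 106A and 2713 of the control. Of the bins marked in 106A, 44.8% (42.9 to 46.8) were marked in the control and 42.5% (40.5 to 44.4) in 748T. Of the bins marked in the control, 42.1% (40.2 to 43.9) were marked in 106A and 37.7% (35.9 to 39.6) in 748T. These shares have unlike starting points, since over all bins 748T marked 13.2% and 106A 10.3%, and the control marked 2713 of 24707. Line 748T thus marked the most of all bins, yet a smaller share of the 106A bins than the control did. It also marked a smaller share of the control bins than 106A did. The intervals treat bins as independent, although bins share neighbours and each line has 1 library. Whether they overlap therefore does not test a difference between lines. In all, 566 bins were marked in all 3 lines and 18871 in none.

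**Figure D3:**
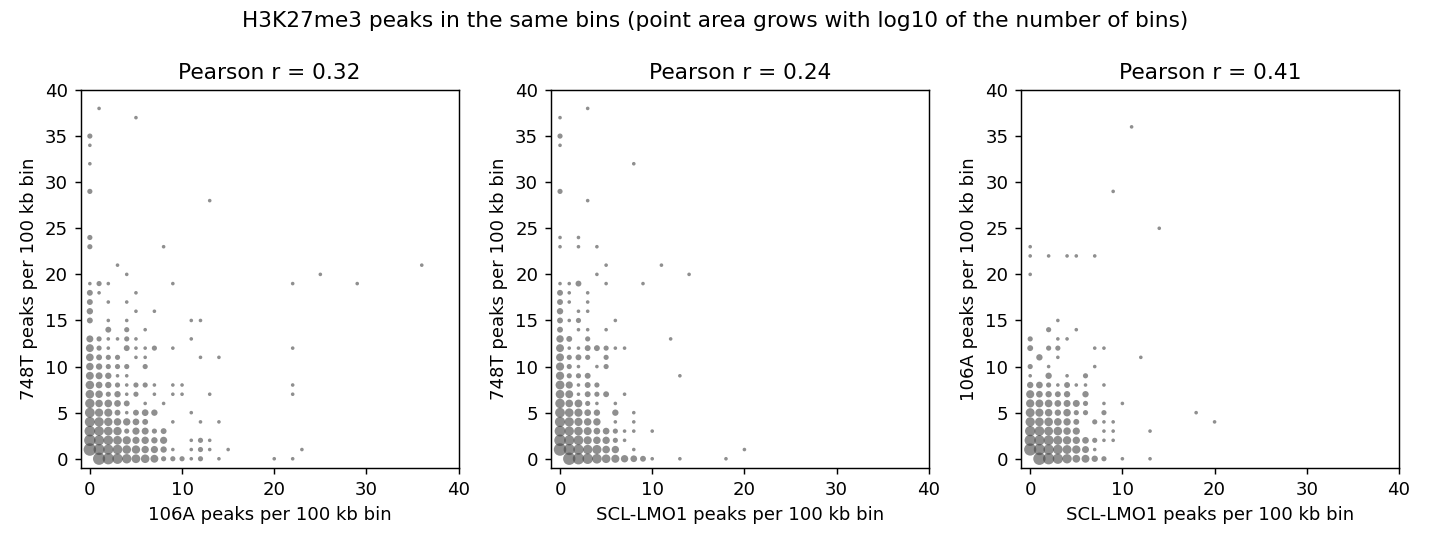
H3K27me3 peaks per 100 kb bin in one line against another, for the 3 combinations, with empty bins left out and point area growing with the log10 of the number of bins. Bins with over 20 peaks in 748T lie mostly near the vertical axis, with few peaks in the other line, and the plotted r is 0.32, 0.24 and 0.41 over all bins.

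Dense bins were a feature of the 748T list. It had 134 bins with 10 or more peaks, holding 23.9% of its peaks, against 37 bins (10.4%) in 106A and 9 bins (2.49%) in the control. The densest held 38 peaks in 748T (chromosome 9 from 119900001 to 120000000), where 106A had 1 and the control 3. On chromosome 2 from 163000001 to 163100000, and on chromosome 4 from 149200001 to 149300000, 748T had 35 peaks and the other lines 0. Bins with 3 or more peaks in 748T and 0 in both other lines numbered 354, against 96 for 106A.

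Bins marked in both fusion lines and empty in the control were rare. A rule of 3 or more peaks in each of 748T and 106A and 0 in the control called 57 of 24707 bins (0.231%). The mirror rule, 3 or more in the control and 0 in both fusion lines, called 117 bins (0.474%), but it asks for a count in 1 line where the other asks for it in 2. Rules of the same form gave 44 bins (0.178%) for 106A with the control and not 748T. For 748T with the control and not 106A they gave 19 (0.0769%), so the fusion lines had the highest of these 3 counts. With at least 5 peaks in each marked line the counts were 15, 3 and 4. All of these counts depend on how many dense bins each list has, and 748T had the most. No expected counts were computed, so the order is not read as a trait of the fusion lines. All 3 lines had 3 or more peaks in 61 bins (0.247%). Without 748T, 226 bins met the rule for 106A alone against the control, and without 106A 534 bins met it for 748T. The mirror count was then 178 without 748T and 240 without 106A.

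Of the 10 bins highest in both fusion lines and empty in the control, 6 lay on chromosome 11. On chromosome 11 from 61100001 to 61200000, 748T had 8 peaks and 106A 22. On chromosome 11 from 121500001 to 121600000 they had 8 and 10, and on chromosome 7 from 75000001 to 75100000 they had 7 and 13. On chromosome 11 from 61300001 to 61400000 they had 16 and 7. H3K4me3 in these bins had no common direction. On chromosome 11, the bin from 80300001 to 80400000 held 4 H3K4me3 peaks of the control and 1 of each fusion line, and the bin from 53900001 to 54000000 held 3 of the control and 0 of both fusion lines. The reverse was seen from 61100001 to 61200000, with 1 in each fusion line and 0 in the control, and in the bin on chromosome 7 above, with 2 in each fusion line and 0 in the control.

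Of the 10 bins highest in the control and empty in both fusion lines, 4 lay on chromosome 16, with 13 peaks from 95800001 to 95900000, 10 from 93900001 to 94000000, 8 from 91100001 to 91200000 and 7 from 97500001 to 97600000. The median second track over the control peaks was 1.44 to 1.96 reads in these 4 bins and 0.203 to 0.841 in the other 6. Beyond 90 Mb on chromosome 16, a limit set after the values were seen, it was 1.76 reads over 213 control H3K27me3 peaks, against 0.386 over the other autosomes. Over the control's H3K4me3 peaks it was 2.73 reads there and 1.09 over the other autosomes. In 106A it was also higher there, at 0.997 against 0.5 reads over H3K27me3 peaks and 2.05 against 1.47 over H3K4me3 peaks. The part of this second track in the chromosome 16 peaks was not tested. The control also had 7 peaks on chromosome 6 from 53800001 to 53900000, and 7 on chromosome 11 from 103900001 to 104000000.

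The densest common marking was on chromosomes 11, 15 and 2. On chromosome 11 from 96000001 to 96100000, 748T had 20 peaks, 106A 25 and the control 14. On chromosome 15 from 102800001 to 102900000 the counts were 21, 36 and 11, and from 102700001 to 102800000 they were 19, 29 and 9. On chromosome 2 from 33400001 to 33500000 they were 13, 11 and 12. In the 3 bins of chromosomes 11 and 15, 106A had the most peaks, although its whole list is shorter than that of 748T.

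Joining peaks of a list within 10 kb and keeping stretches of 5 or more, a choice made after the values were seen, gave 302 clusters in 748T, 112 in 106A and 38 in the control. They held 33.4%, 16.7% and 5.12% of the peaks, with median lengths of 17.0, 14.4 and 16.6 kb. Listed peaks filled 15.6% to 17.8% of the cluster length, so the clusters were alike in length and filling and differed in number. The depths of the 3 libraries are unknown, so fewer domains and shallower libraries cannot be told apart.

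Clusters of 106A met clusters of 748T more often than those of the control. Of 112 clusters in 106A, 28 met a 748T cluster (25.0%, 17.3 to 34.1) and 7 met a control cluster (6.25%, 2.55 to 12.5), where 302 and 38 clusters were there to be met. With any single peak counted, the shares were 60.7% (51.0 to 69.8) for 748T and 48.2% (38.7 to 57.9) for the control. Of the 302 clusters in 748T, 28 met a 106A cluster (9.27%, 6.25 to 13.1) and 10 a control cluster (3.31%, 1.60 to 6.01). Of the 38 control clusters, 11 met a 748T cluster (28.9%, 15.4 to 45.9) and 8 a 106A cluster (21.1%, 9.55 to 37.3). By single peaks the order was the other way round, since 27 held a 106A peak (71.1%, 54.1 to 84.6) and 18 a 748T peak (47.4%, 31.0 to 64.2). Merging all clusters gave 411 stretches, of which 23 were in both fusion lines alone and 5 in all 3 lines.

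These 5 stretches were on chromosome 11 from 96024382 to 96068159 and from 96104213 to 96141193, chromosome 15 from 102080449 to 102102305 and from 102735551 to 102893625, and chromosome 2 from 33479801 to 33503695. The longest, of 158.1 kb on chromosome 15, held 38, 65 and 20 H3K27me3 peaks of 748T, 106A and the control. Of H3K4me3 it held 4 peaks of 748T, 2 of 106A and 0 of the control. On chromosome 2, where the counts of H3K27me3 were 7, 12 and 9, no line had an H3K4me3 peak.

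The largest 748T cluster had no counterpart. It ran over 120.0 kb on chromosome 11 from 98894002 to 99013979 with 46 peaks, where 106A had 1 peak and the control 0, and where the control had 2 H3K4me3 peaks and the fusion lines 0. On chromosome 3 from 79311622 to 79369943, 106A had 22 peaks, 748T 0 and the control 4. On chromosome 3 from 94699727 to 94738941, 106A had 22 and 748T 19, against 2 in the control. Large clusters were therefore found both in a single fusion line and in both.

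Few H3K27me3 peaks overlapped an H3K4me3 peak, and the share was lowest in the control. Of 748T peaks, 146 of 8362 overlapped an H3K4me3 peak of the same line (1.75%, 1.48 to 2.05), and of 106A peaks 25 of 5424 did (0.461%, 0.298 to 0.680). In the control the count was 0 of 4868, which allows a share of up to 0.0616%. The nearest approach in the control was 138 bp. Within 5 kb of H3K4me3 of the same line lay 19.8% of 748T peaks, 5.07% of 106A peaks and 1.66% of control peaks. The share that the genome covered by H3K4me3 would give was not computed, so no avoidance is read from the overlaps. As a common yardstick, the 10922 H3K4me3 regions present in all 3 lines were used. The median distance to them was 40.8 kb from 748T peaks, 80.4 kb from 106A peaks and 98.2 kb from control peaks.

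In bins without shared H3K4me3 the 3 lines had similar densities of H3K27me3 peaks, and in the other bins 748T had the highest. In the 18861 bins without a shared H3K4me3 region there were 19.7 peaks per 100 bins in 748T, 18.8 in 106A and 18.6 in the control. In the 4617 bins with 1 to 2 such regions the values were 72.6, 33.6 and 24.8, and in the 1099 bins with 3 to 5 they were 105.3, 26.9 and 17.7. Bins with 1 or more shared regions gave 748T 2.47 times the density of 106A and 3.41 times that of the control, against 1.05 and 1.06 times in bins without. With the taller 50% of each list the last ratio was 0.972. Counting marked bins in place of peaks, the share in bins without shared H3K4me3 was 8.40% in 748T, 8.75% in 106A and 10.4% in the control, and with 3 to 5 regions 35.1%, 13.2% and 10.5%.

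**Figure D4:**
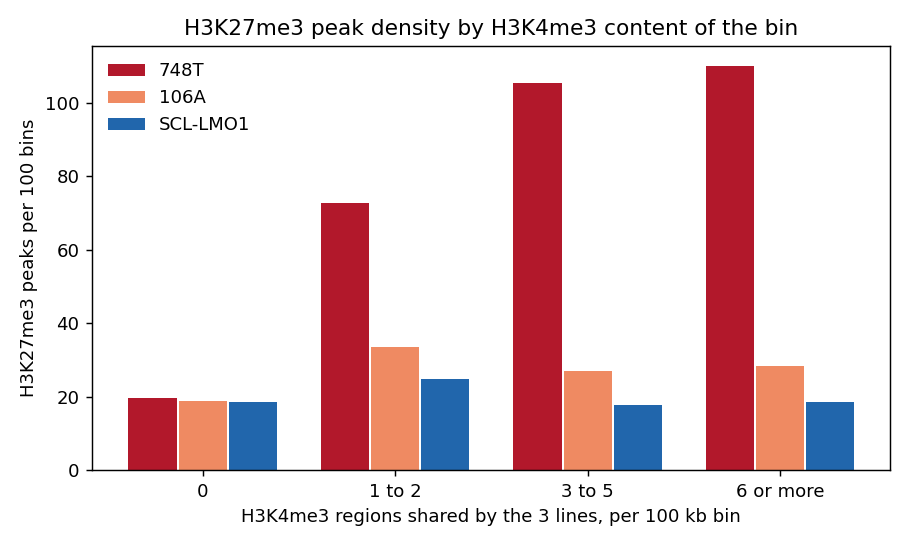
H3K27me3 peaks per 100 bins (bins of 100 kb) by the number of H3K4me3 regions of all 3 lines in the bin, with a bar per line. In bins with none, the bars stand at 18.6 to 19.7, and in bins with 3 to 5 they stand at 105.3 in 748T, 26.9 in 106A and 17.7 in the control.

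In counts, bins without shared H3K4me3 held 3709 peaks of 748T, 3540 of 106A and 3503 of the control, so most of the difference in list length lay in the other bins. Within each class of H3K4me3 content, r was again highest for 106A with the control. It was 0.407 in bins with none, 0.419 with 1 to 2, 0.433 with 3 to 5 and 0.352 in the 130 bins with 6 or more. For 106A with 748T it was 0.316, 0.330, 0.368 and 0.138, and for 748T with the control 0.256, 0.251, 0.221 and 0.128. Spearman's rho kept this order except in the 130 bins with 6 or more, where 748T with the control (0.208) was above 748T with 106A (0.145).

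The regions of the 2 fusion lines alone were closer to H3K4me3 than those of the control alone. Of the 395 regions, 19.5% lay within 5 kb of an H3K4me3 peak of 748T, 11.6% of 106A and 9.11% of the control. Regions of 748T alone gave 19.9%, 16.7% and 15.5%, regions of 106A alone 7.40%, 4.61% and 5.28%, and regions of the control alone 3.12%, 2.16% and 1.58%. For H3K4me3 of 748T, the 395 regions were thus near those of 748T alone. For H3K4me3 of 106A and of the control they lay between regions of 748T alone and of 106A alone. Regions of 106A alone were nearer to those of the control alone than to those of 748T alone. H3K4me3 of the control touched 6 of the 395 regions (1.52%), against 13 for H3K4me3 of 748T and 5 for that of 106A.

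By chromosome, each line had its own high share. Chromosome 3 held 563 peaks of 106A (10.4% of its list), 293 of 748T (3.50%) and 201 of the control (4.13%). Chromosome 15 held 639 peaks of 748T (7.64%), 310 of 106A (5.72%) and 203 of the control (4.17%). Line 748T also stood above the others on chromosome 4 (7.41%, against 4.04% in 106A and 4.75% in the control), chromosome 8 (385 peaks, against 129 and 122) and chromosome 17 (4.97%, against 2.88% and 2.61%). Chromosome 16 held 295 peaks of the control (6.06%), 274 of 748T (3.28%) and 212 of 106A (3.91%). The second track over H3K4me3 peaks, relative to the other autosomes, was 1.28 in 106A on chromosome 3, 1.56 in 748T on chromosome 15 and 1.14 in the control on chromosome 16. On chromosome 16 it was also 1.12 in 106A, and in the control it was also 1.12 on chromosome 6. In 748T it was 0.949 on chromosome 4, 0.934 on chromosome 8 and 1.06 on chromosome 17. It was also 1.49 in 748T on chromosome 14, where that line held 4.15% of its H3K27me3 peaks, next to 4.44% in 106A and 4.29% in the control. In 106A it was 1.18 on chromosome 5 and 1.17 on chromosome 17, where that line held 4.17% and 2.88% of its peaks. A high second track thus went with a high share of peaks on some chromosomes and not on others, and its part in the shares was not tested.

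**Figure D5:**
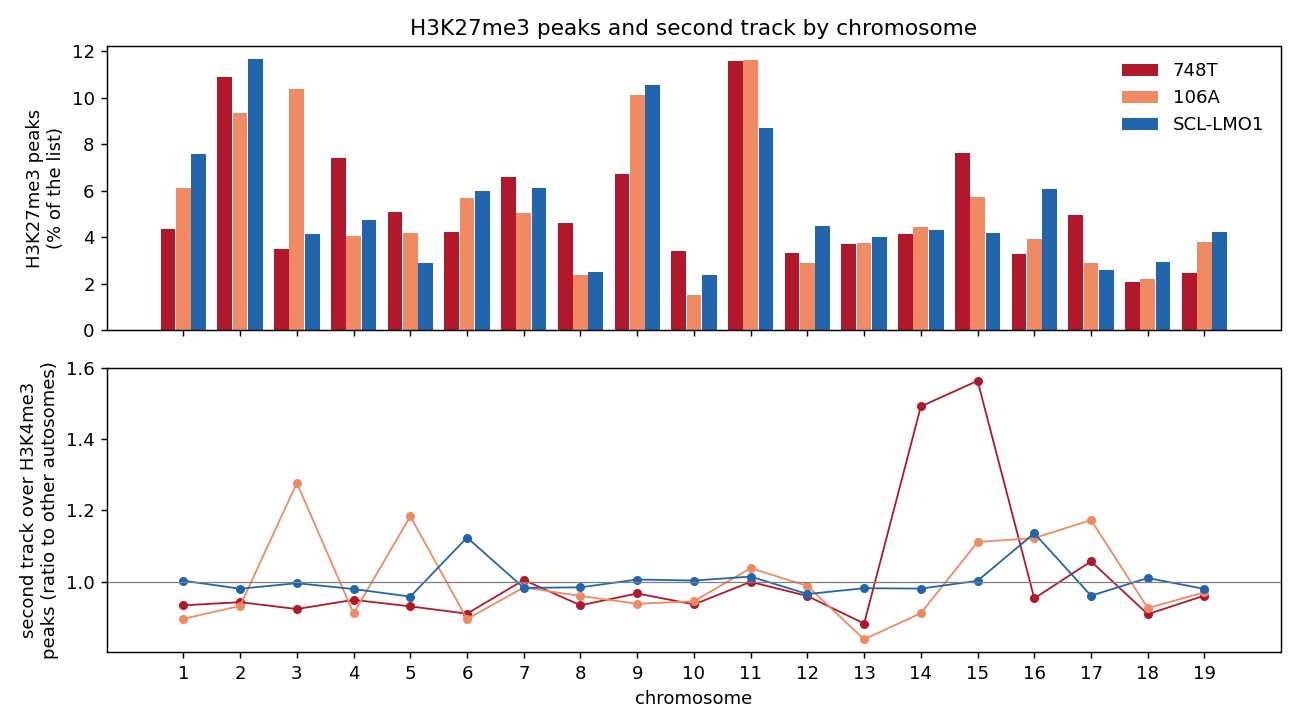
Upper panel, share of each line's autosomal H3K27me3 peaks (%) by chromosome. Lower panel, mean second track over H3K4me3 peaks of a chromosome relative to the other autosomes of that line. Line 106A is highest on chromosome 3 next to the other lines (10.4% of its list, ratio 1.28), and 748T stands out in the lower panel on chromosomes 14 and 15 (1.49 and 1.56).

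Chromosome 9 showed no such second-track surplus, at 0.967 in 748T, 0.938 in 106A and 1.01 in the control. There 106A and the control were alike, with 10.1% and 10.5% of their lists, and 748T had 6.72%. On chromosome 11 the fusion lines were alike, with 11.6% each, and the control had 8.69%. With chromosomes 3, 5, 14, 15 and 16 left out, an exclusion chosen after the values were seen, 8.32% of 106A peaks met 748T and 4.71% of control peaks met 106A.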

How the data were processed

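Chromatin fixed with formaldehyde was sonicated, immunoprecipitated and sequenced in single-end runs, per the labels' protocols. The build mm9 and the tools CASAVA 1.9 and BWA 0.5.9-r26 are named, without roles, per the submitters' processing notes. No source used here names the peak caller. In the deposited lists, 1 per library, every region has start and end positions with the mean and maximum pileup height in reads of the sample and of a second track. These were not scaled to depth, which is unknown, so heights were not compared between lists.

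Peaks were counted by midpoint in 100 kb bins from base 1 to the furthest peak end of these lines. Regions were merged by overlap. Intervals are exact Clopper-Pearson at 95%, and a count of 0 was given a limit of 3 counts. No p-value was computed. Regions named are the 10 widest of each list and class, and the 10 highest bins of each class, others being chosen after their values were seen. Members, lists and rules were chosen with earlier results of these data known. Functions were tested on simulated data against slower versions. The lists of 961C were not used. The gene and promoter tables at hand are for GRCm38.p6, so no genes were named and no sequence is shown. Python 3.11.15, numpy 2.4.6, pandas 2.3.3, scipy 1.17.1 and matplotlib 3.10.9 were used.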

Additional observations from a re-analysis of the deposited data

How the results depend on the processing

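Of 112 values recomputed under alternatives, 68 moved by less than their interval, or by less than 1.5 times for counts and ratios (0.02 for differences of r), and no difference of r changed sign. The density ratio of 748T to the control in bins without shared H3K4me3 went from 1.06 to 0.972 with the taller 50% of each list. With lists of equal length, 106A peaks met 748T in 6.92%, and control peaks met 106A in 5.22% and 748T in 2.03%. The median distances were then 95.7 kb (106A to 748T), 161.5 kb (control to 748T) and 49.8 kb (control to 106A), those to shared H3K4me3 37.0 kb (748T) and 76.8 kb (106A), and r of 106A with the control exceeded r with 748T by 0.127. With the taller 50% of each list the overlaps were 9.48%, 2.05% and 4.03%, in the order 106A with 748T, control with 748T and control with 106A. The distances were 99.8, 181.8 and 94.7 kb, 233 regions were in the fusion lines alone, the bin rules called 26 (fusion lines) and 68 (control), and the excesses of r were 0.0206 (106A with the control over 748T) and 0.107 (748T with 106A over the control). Without peaks above 1 read in the second track, 6.91% of 106A peaks met 748T and 4.34% of control peaks met 106A, and the distances were 42.7 kb (106A to 748T) and 55.2 kb (control to 106A), with 83.1 kb from 106A to shared H3K4me3. With 50% of the peak covered, the overlaps were 5.24%, 1.83% and 3.14%. With chromosomes 3, 5, 14, 15 and 16 left out, chosen after seeing the data, control peaks met 106A in 4.71%, the distances were 34.3 kb (106A to 748T) and 47.3 kb (control to 106A), and 748T lay 43.9 kb from shared H3K4me3. The excess of r of 106A with the control over 748T was 0.0409 in 50 kb bins, 0.114 in 1 Mb bins and 0.0692 in bins shifted by 50 kb, and that of 748T with 106A over the control was 0.0996 in 50 kb and 0.0269 in 1 Mb bins. At 2 peaks against 0, 143 and 315 bins were called. Leaving out each fusion line gave 5169 to 8211 regions, 226 to 534 bins and, for the control, 178 to 240 bins, since fewer lists then enter the rule. In the other moves the cause was not tested. No paired analysis was possible because each line has 1 library per mark.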

Other observations

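Outside the autosomes, the lists differed on chromosome X, which enters none of the comparisons above. Line 106A listed 170 H3K27me3 peaks there (3.04% of its whole list), 748T 46 (0.547%) and the SCL-LMO1 line 7 (0.144%). Their median widths were 120.5, 113.5 and 113 bp, and no X peak of any of these lines met one of another. Among autosomal peaks under 150 bp only 0.884% to 3.58% met another list, so no difference of X is read from this. H3K4me3 peaks on X were alike in number, at 513 in 106A, 520 in 748T and 558 in the control. The median second track over them was 1.03 reads in 106A, 0.0680 in 748T and 0.550 in the control, against 1.47, 0.202 and 1.09 reads on the autosomes.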
